A study of Triticum aestivum with 18 samples.

Results

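FKBP70, PDI and hsp16.9A are protein-folding genes named on a wheat array that was used to measure transcripts in root apices under aluminium stress. All probe rows whose annotated symbol, or its RefSeq synonym, is one of these names were taken, which gave 8 of 45220 rows from 3 of 553 annotated genes. FKBP70 has 3 rows (12689, 31729 and 36469, called probes 1, 2 and 3 here), PDI has 2 (29606 and 38784, probes 1 and 2), and hsp16.9A has 3 (6378, 10756 and 31293, probes 1, 2 and 3). The hsp16.9A rows carry the symbol LOC543277 and were reached through its synonym. All rows of a gene cite the same sequence record in the annotation, so they are not counted as independent measurements of the condition. No probe sequence was examined, so whether the rows of a gene detect the same transcript is not known. A further 44224 rows have no gene name, so other chaperone genes may be on the array without one.

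The 3 genes stand for separate steps of protein folding. FKBP70 encodes a peptidyl-prolyl isomerase of the FK506-binding family, which turns the peptide bond before a proline and so lets a chain reach its folded form. PDI, protein disulfide isomerase, works in the endoplasmic reticulum, where it forms, breaks and rearranges disulfide bonds in secreted proteins. In wheat it is best known from the endosperm, where storage proteins fold. The hsp16.9A gene encodes a small cytosolic heat shock protein that binds unfolding proteins without using ATP and keeps them from aggregating until other chaperones refold them. Aluminium in acid solution stops the elongation of the root apex, where dividing and expanding cells make and secrete much protein.

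Roots came from Triticum aestivum cultivar Chinese Spring (CS) and from the addition lines 3R and 6R, in which 1 rye (Secale cereale) chromosome pair, 3R or 6R, stands beside all wheat chromosomes. Seedlings of each line spent 24 h either in 200 µM AlCl3 or in the same acid nutrient solution without it, and each replicate pooled root tips from seedlings aged 5 days. Each of the 6 groups held 3 samples that the labels call biological replicates. Within a replicate, the treated and the untreated RNA took Cy3 and Hyper 5 in either order and were hybridised together, on 1 of 9 arrays.

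Values are log2 intensities, which the sources give with no detection call. Each line looks to have been normalised on its own, with sample medians of 7.33 in CS, 7.09 in 3R and 7.22 in 6R, so a level set between lines rests on separately normalised samples. The lowest values lie at 5.62 to 5.64, and changes of rows near them are compressed. Replicates of a group correlated at 0.941 to 0.98 over all rows. As a check of the labelled tissue, all 14 rows of beta-tubulin genes had a mean of at least 6.3, as did 3 of 6 histone rows, whereas 4 of 26 endosperm rows did, and no cyclin or PCNA row is named. Rows of rbcL, PsbO and PsbP, which mark green tissue, reached 6.3 in 22 of 23 cases, with means of 5.99 to 11.69. Over the whole array, 37.6% of rows had a mean under 6.3. These counts therefore do not set root apart from green tissue, and the histone count does not stand out. The summed tubulin signal was 17.19 to 17.79 in control samples and 16.45 to 17.36 in Al samples on the log2 scale, that of the green tissue rows 14.03 to 15.37 and 14.11 to 16.06, and that of the endosperm rows 10.93 to 11.36 and 10.71 to 11.18. Their part in the results was not tested. In such bulk samples, fewer cells of a type and less RNA per cell cannot be told apart.

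Chaperone rows moved downward or stayed within error in every line, and none rose. FKBP70 fell in all lines at probe 3, PDI fell in CS and 6R at probe 2, and hsp16.9A fell in 6R at probe 2. In CS 2 of 8 rows fell, where 11.4% of all rows did, in 3R 1 of 8 (7.19% of all rows) and in 6R 4 of 8 (13.3% of all rows). The median log2 change of the 8 rows was -0.34 in CS, -0.19 in 3R and -0.48 in 6R, while that of all rows was -0.01 in each of CS and 3R and -0.0032 in 6R. The count in 3R is near the share of all rows that fell. Each change is a line's average log2 ratio of Al over control in its 3 arrays, corrected for dye. The dye effect and the spread behind each SE were estimated from all 9 arrays together, so the SE of a row is the same in each line. A row passed where its limma p, adjusted across the whole array by Benjamini-Hochberg, was under 0.05.

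**Figure D1:**
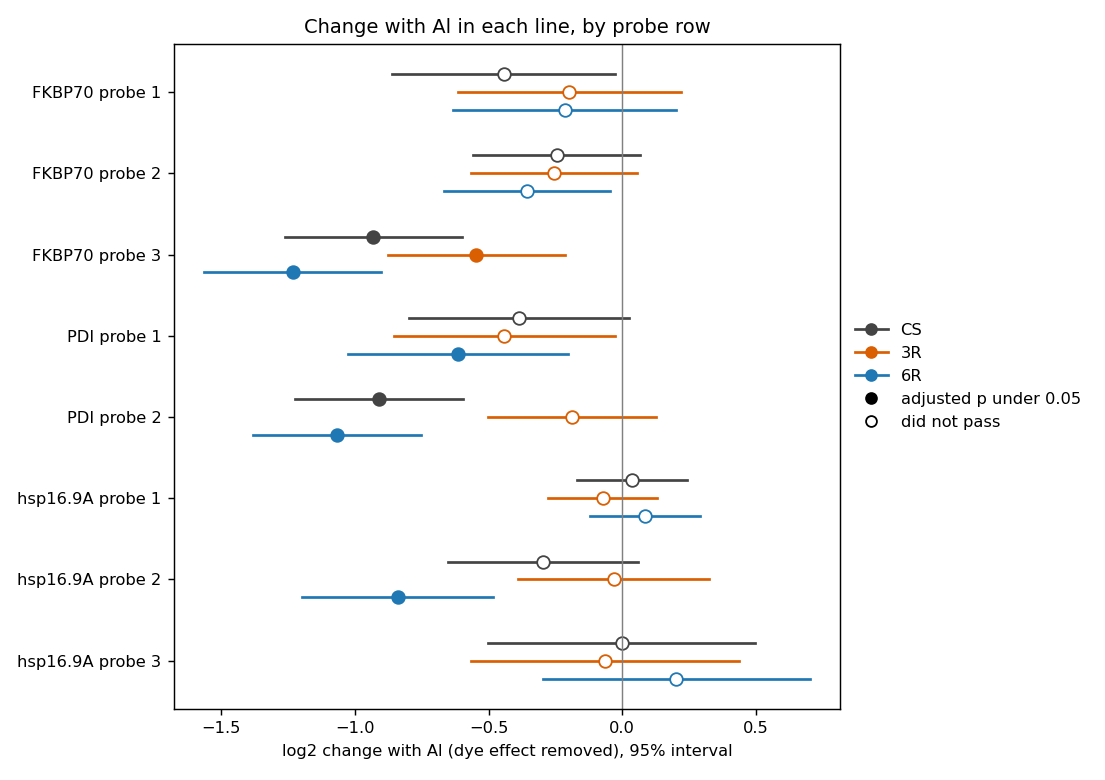
Log2 change with Al in CS, 3R and 6R for each of the 8 rows, with the 95% interval of the fit (3 arrays per line). Filled points passed at an adjusted p under 0.05, and open points did not. FKBP70 probe 3 is below 0 in all 3 lines, and PDI probe 2 and hsp16.9A probe 2 lie nearer 0 in 3R than in 6R.

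FKBP70, the prolyl isomerase gene, gave the most even result at probe 3. Its CS control samples stood at 12.56, 12.40 and 12.93 (replicates 1 to 3) and its CS Al samples at 12.12, 11.37 and 11.71. Every control sample was above every Al sample. The change was -0.93 ± 0.14 (SE, n = 3 arrays, 1.91-fold lower, limma adjusted p = 0.0026), and 3.63% of all rows had a lower value in CS. In 6R the controls stood at 13.07, 12.89 and 12.79 and the Al samples at 11.81, 11.71 and 11.64, again with no overlap. The fall in 6R was 2.35-fold (log2 -1.23 ± 0.14, adjusted p = 0.00062).

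In 3R the FKBP70 probe 3 control samples were at 12.78, 12.72 and 12.42, and the Al samples at 12.55, 11.97 and 11.87, so that the highest Al sample lay within the control range. The change was -0.55 ± 0.14 (1.46-fold lower, limma adjusted p = 0.04). This call was lost on leaving out any one array of 3R or of 6R (adjusted p = 0.051 to 0.32) and was kept without any one CS array. With all 18 samples normalised together its adjusted p was 0.053. The measured ratio, before any dye correction, was below 0 in 9 of 9 arrays, and the mean of the lines was -0.90 ± 0.09 (1.87-fold lower, adjusted p = 0.00011).

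The other FKBP70 rows had smaller changes. Probe 2 lay between 12.05 and 14.05 over all samples, and its log2 change was -0.25 in CS, -0.26 in 3R and -0.36 in 6R, with no line passing. Without 6R replicate 3 it passed in 6R (-0.51, limma adjusted p = 0.028). Its mean over the lines passed at -0.29 ± 0.08 (limma adjusted p = 0.025), with a ratio below 0 in 7 of 9 arrays. Without 3R replicate 2, 3R replicate 3, CS replicate 3 or 6R replicate 1 that call was lost (adjusted p = 0.051 to 0.15). Probe 1 had control samples from 9.32 to 10.83 and Al samples from 9.25 to 9.92, with changes of -0.44 in CS, -0.20 in 3R and -0.22 in 6R that did not pass. In CS its interval ran from -0.86 to -0.03, and the row passed there without CS replicate 2 (-0.82, adjusted p = 0.016). Its mean over the lines, -0.29 (adjusted p = 0.078), passed without CS replicate 2 (-0.45, adjusted p = 0.0073) or 6R replicate 3 (-0.34, adjusted p = 0.024), and among rows with a mean of at least 6.3 (adjusted p = 0.042). In 6R the probe 1 value turned to 0.03 without 6R replicate 1, and in 3R it was -0.06 without 3R replicate 2. The changes of probes 1 and 2 were smaller in size than that of probe 3 in every line.

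**Figure D2:**
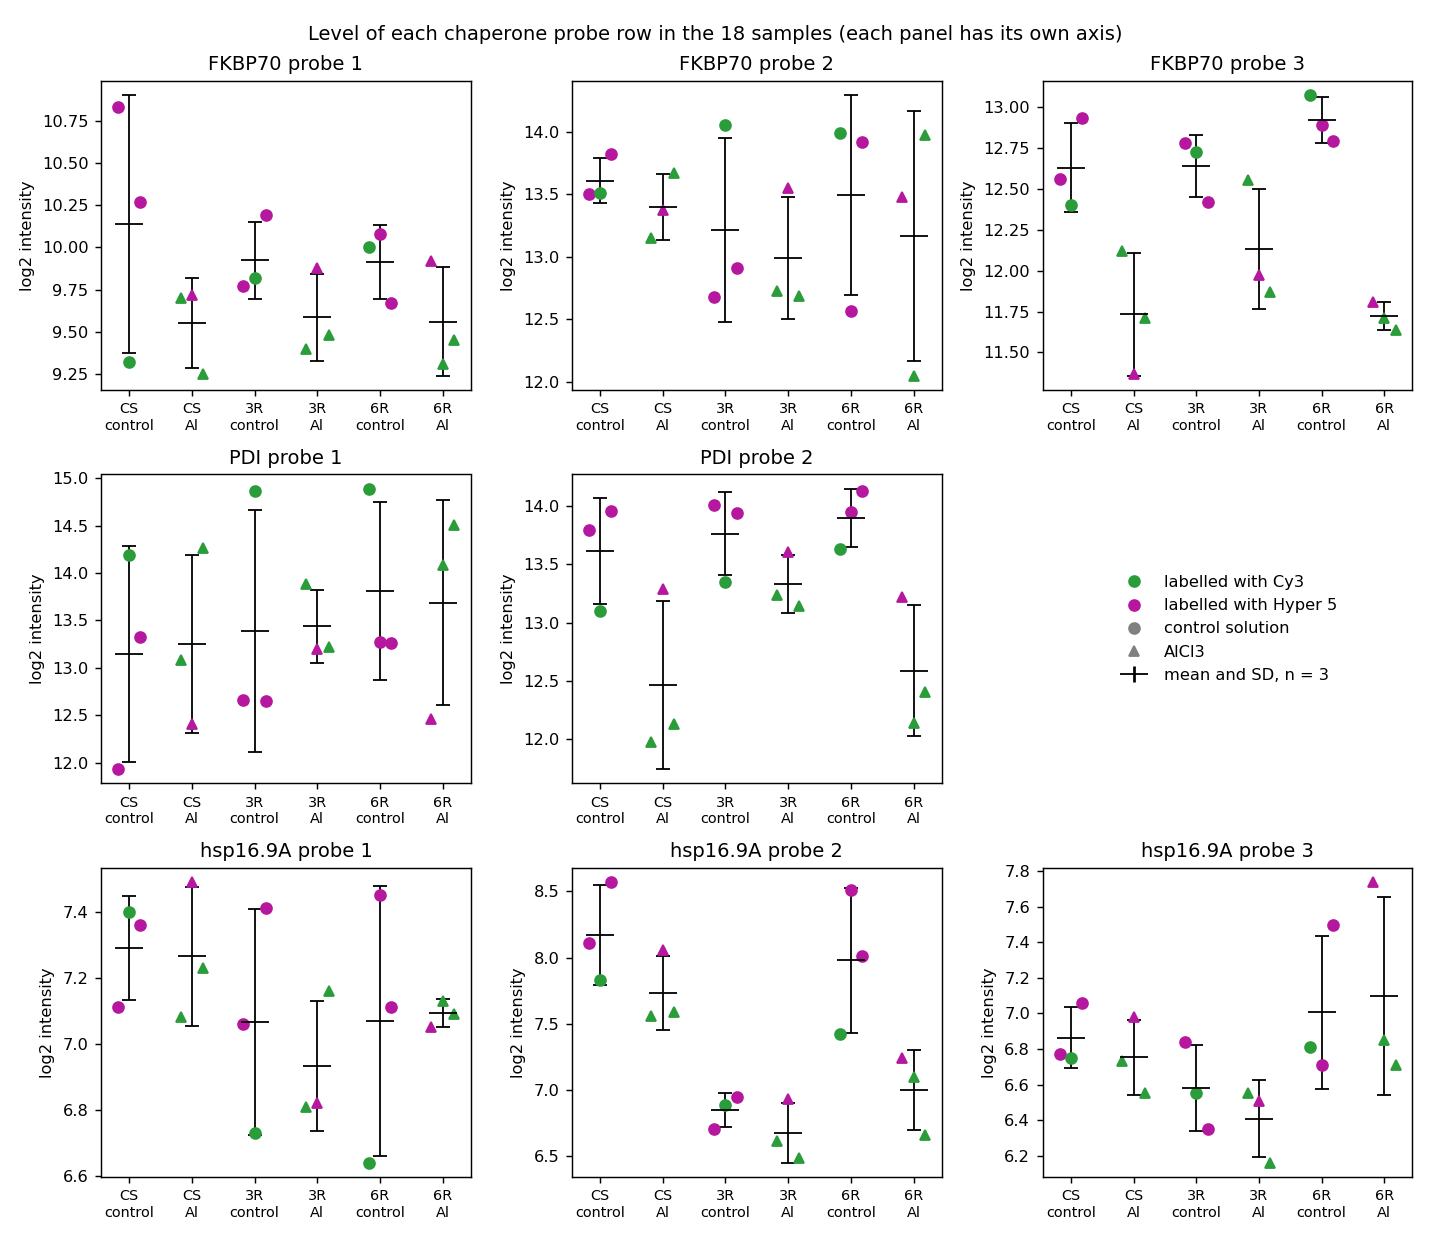
Log2 intensity of the 8 rows in the 18 samples, 1 panel per row, with control samples as circles and Al samples as triangles, coloured by dye; bars show mean and SD of 3 samples. The Al samples of FKBP70 probe 3 lie below the controls in CS and 6R, PDI probe 1 splits by dye rather than by treatment, and hsp16.9A probe 2 is low in all 3R samples.

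PDI, the disulfide isomerase gene, fell at probe 2 in CS and in 6R. In CS the control samples were at 13.80, 13.10 and 13.96 and the Al samples at 11.97, 13.29 and 12.13. The Al sample of CS replicate 2 was above its own control, on the array where the Al sample carried Hyper 5. With the dye effect removed the change was -0.91 ± 0.14 (SE, n = 3 arrays, 1.88-fold lower, limma adjusted p = 0.0023). In 6R the controls were at 13.63, 13.95 and 14.13 and the Al samples at 13.22, 12.14 and 12.40, with no overlap. The fall was 2.10-fold (log2 -1.07 ± 0.14, adjusted p = 0.00098). Both calls held on leaving out any one array (highest adjusted p = 0.019 in CS and 0.02 in 6R), and both were lost without the dye term (adjusted p = 0.23 and 0.15), where the values were -1.16 and -1.31.

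In 3R the same PDI row did not pass. Control samples stood at 14.01, 13.35 and 13.94 and Al samples at 13.24, 13.61 and 13.14, which overlap. The change was -0.19, with a 95% interval from -0.50 to 0.13 (limma adjusted p = 0.48). Its direction rests on 3R replicate 2, without which it was 0.06, and it ranged down to -0.27 without 3R replicate 1.

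PDI probe 1 differed more between dyes than between treatments. Its Cy3 signal was above its Hyper 5 signal by 1.47 ± 0.11 on the log2 scale, and 1.37% of all rows had a larger dye effect. Control samples ranged from 11.93 to 14.89 and Al samples from 12.41 to 14.51. The measured ratio was below 0 in 3 of 9 arrays, the 3 with the Al sample in Hyper 5, and with the dye effect removed it was below 0 in 9 of 9. The fitted change was -0.39 in CS and -0.44 in 3R, neither passing, and -0.61 ± 0.18 in 6R (limma adjusted p = 0.037). The 6R call rests on the dye term, since without it the value was -0.12 (adjusted p = 0.98). It was also lost without CS replicate 1 or 3, 3R replicate 1, or 6R replicate 1 or 2 (adjusted p = 0.053 to 0.43), and the value without 6R replicate 1 was -0.31. The mean of the lines was -0.48 ± 0.11 (adjusted p = 0.0085), and it was 0.0099 without the dye term.

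**Figure D3:**
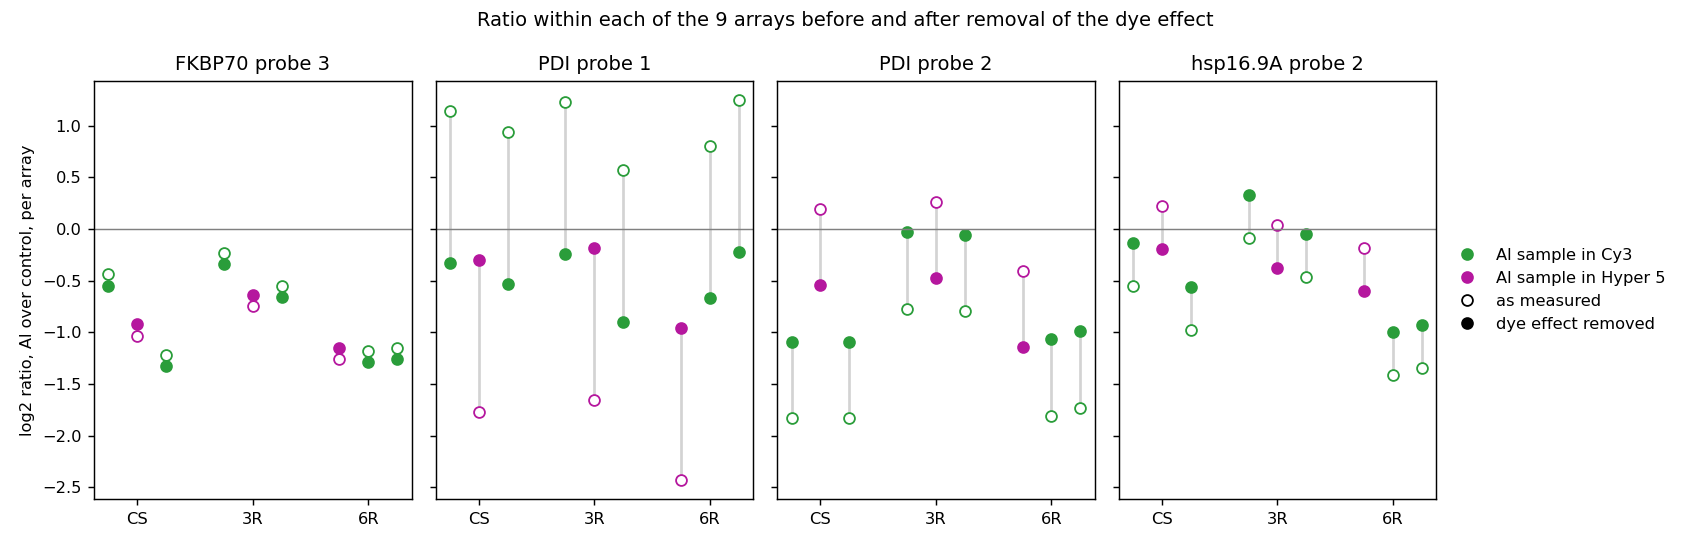
Log2 ratio of Al over control in each of the 9 arrays for 4 rows, as measured (open) and with the dye effect removed (filled), coloured by the dye of the Al sample. For PDI probe 1 the measured ratios change sign with the dye, and for FKBP70 probe 3 they lie below 0 in 9 of 9 arrays.

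The small heat shock gene hsp16.9A fell with Al in 6R at probe 2. The 6R control samples were at 7.42, 8.51 and 8.01 and the Al samples at 7.24, 7.10 and 6.66, with no overlap. The change was -0.84 ± 0.15 (SE, n = 3 arrays, 1.79-fold lower, limma adjusted p = 0.0052). Without the dye term it was -0.98 (adjusted p = 0.09), and with slide added to the block -0.75 (adjusted p = 0.071). In CS the controls were at 8.11, 7.83 and 8.57 and the Al samples at 7.56, 8.06 and 7.59, and the change of -0.30 (95% interval -0.65 to 0.06) did not pass. In 3R the controls were at 6.71, 6.89 and 6.95 and the Al samples at 6.62, 6.93 and 6.49. The 3R change was -0.03 (-0.39 to 0.33). These 3R controls lay nearer the low end of the scale than those of CS and 6R, where changes are compressed. Whether this bears on the smaller change in 3R was not tested.

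Probes 1 and 3 of hsp16.9A did not pass in any line. Probe 1 had group means of 6.93 to 7.29 and changes of 0.03 in CS, -0.07 in 3R and 0.08 in 6R. Probe 3 had group means of 6.41 to 7.10 and changes of -0.0028, -0.06 and 0.20, and 1 of its 18 samples lay under 6.3. Without 6R replicate 3, probe 3 passed upward in 6R (0.54, adjusted p = 0.034 in limma). These rows did not follow probe 2. The group means of probe 1 were near the sample medians (7.09 to 7.33), and those of probe 3 reached lower. The lowest values of the scale were 5.62 to 5.64. Whether signal level bears on the difference between the rows was not tested.

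Averaged over the lines, 5 of 8 rows fell, where 19% of all rows did: probes 2 and 3 of FKBP70, both PDI rows and hsp16.9A probe 2. The last had a mean change of -0.39 ± 0.09 (limma adjusted p = 0.012). Its call was lost without 3R replicate 2 (adjusted p = 0.062, -0.26) and without the dye term (-0.53, adjusted p = 0.07). Its dye effect (Cy3 over Hyper 5) was -0.42, and most Al samples carried Cy3, which lowers measured ratios. The ratio was below 0 in 7 of 9 arrays as measured and in 8 of 9 with the dye effect removed. PDI probe 2 fell by 0.72 on the log2 scale with an SE of 0.08 (adjusted p = 0.00027), also in 7 of 9 arrays as measured. The mean of PDI probe 1 was lost without 6R replicate 1 (-0.35, adjusted p = 0.052).

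The lines' responses were set against each other for each row. No chaperone row passed for any pair of lines in limma, where 1.84% of all rows differed between 3R and CS, 0.318% between 6R and CS and 1.09% between 3R and 6R. At an unadjusted p under 0.05 there were 1, 1 and 3 of 8 rows. The share of all rows at that looser threshold was not taken, so these counts have no background to be read against. The 3 rows between 3R and 6R were those with the largest falls in 6R. PDI probe 2 changed less in 3R than in 6R by 0.88 (95% interval 0.44 to 1.31, adjusted p = 0.1), hsp16.9A probe 2 by 0.81 (0.31 to 1.30, adjusted p = 0.18) and FKBP70 probe 3 by 0.69 (0.23 to 1.14, adjusted p = 0.22). Between 3R and CS the row was PDI probe 2, with a difference of 0.72 (0.28 to 1.16, adjusted p = 0.14), and between 6R and CS it was hsp16.9A probe 2, with -0.54 (-1.04 to -0.05, adjusted p = 0.5). Leaving out CS replicate 2 made PDI probe 2 pass in both comparisons of 3R, at 0.99 against CS and 0.88 against 6R (adjusted p = 0.013 for both). For hsp16.9A probe 2, the 3R controls (mean 6.85) stood nearer the low end of the scale than those of 6R. This limits what the difference of 3R from 6R at that row can show.

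Without Al, the lines differed at 1 chaperone row, hsp16.9A probe 2, which was lower in 3R than in the other lines. Its control samples in 3R were at 6.71, 6.89 and 6.95, all below the lowest control of CS (7.83) and of 6R (7.42). The group means were 6.85 ± 0.13 in 3R, 8.17 ± 0.38 in CS and 7.98 ± 0.55 in 6R (SD, n = 3). The difference of 3R from CS was -1.32 ± 0.22 (SE, 2.50-fold lower, limma adjusted p = 0.005), and 1 of 8 rows was lower where 2.66% of all rows were. The difference of 3R from 6R was -1.13 ± 0.22 (2.19-fold lower, adjusted p = 0.021), again 1 of 8 rows against 1.08% of all rows.

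The low 3R level was also seen within slides, which were read from the scanner file names. On slide 3, with 1 control sample per line, 3R was lower than CS by a log2 difference of -1.62 and lower than 6R by -1.06. On slide 1, with 2 control samples each, it differed from 6R by -1.17. With the slide as a fixed block the difference from CS was -1.55 with an adjusted p = 0.084 in limma, and that from 6R was -1.13 (adjusted p = 0.036). With all samples normalised together the differences were -1.06 (adjusted p = 0.026) and -1.02 (adjusted p = 0.042). The call against CS held on leaving out any one array, and that against 6R was lost without 3R replicate 1 or 3 or 6R replicate 2 or 3 (adjusted p = 0.071 to 0.14). Between 6R and CS no chaperone row differed in controls, where 0.0619% of all rows passed at the adjusted p. At an unadjusted limma p under 0.05 there were 0 of 8 rows, and no share of all rows was taken at that threshold. For hsp16.9A probe 2 the difference of 6R from CS was -0.19, with an interval from -0.66 to 0.28.

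No other row passed between the lines' control samples. The other hsp16.9A rows, probes 1 and 3, differed between 3R and CS by -0.22 and -0.28 (limma adjusted p = 0.66 and 0.78). Between 3R and 6R they differed by -0.0025 and -0.42. For PDI probe 2 the control means were 13.62 ± 0.46 in CS, 13.77 ± 0.36 in 3R and 13.90 ± 0.25 in 6R (SD, n = 3), and for FKBP70 probe 3 they were 12.63 ± 0.27, 12.64 ± 0.19 and 12.92 ± 0.14. The intervals of FKBP70 probe 3 ran from -0.46 to 0.49 between 3R and CS and from -0.18 to 0.76 between 6R and CS. Between 3R and 6R its control samples did not overlap (12.42 to 12.78 against 12.79 to 13.07), and the difference was -0.28, with an interval from -0.75 to 0.19 (limma adjusted p = 0.91). PDI probe 1 and FKBP70 probe 2 were the least precise, with intervals from -0.58 to 1.06 and from -1.32 to 0.52 between 3R and CS. The largest of these differences was that of PDI probe 1 between 6R and CS, at 0.66 (-0.16 to 1.48, limma adjusted p = 0.74).

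Ordered by group mean, hsp16.9A probe 2 ran from CS control (8.17) through 6R control, CS Al (7.73), 6R Al and 3R control to 3R Al (6.68). Of the 5 neighbouring pairs, only CS Al and 6R Al did not overlap and lay apart by more than the larger SD of the pair. For FKBP70 probe 3 the order was 6R control, 3R control, CS control, 3R Al, CS Al and 6R Al. By mean the 3 control groups thus stood above the 3 Al groups, and 3 of 5 neighbours lay apart beyond the larger SD. Only 3R control and 6R control did not overlap, whereas samples of CS control and 3R Al did. PDI probe 2 had the same division of means, with 3R Al (13.33 ± 0.25) above 6R Al (12.59 ± 0.57) and CS Al (12.46 ± 0.72). Of its neighbours 1 of 5 lay apart beyond the SD, and the samples of every neighbouring pair overlapped. FKBP70 probe 1 was divided likewise, with Al means of 9.56 to 9.59 below control means of 9.92 to 10.14. In that row only 3R Al and 6R control lay apart beyond the SD, and their samples overlapped. In the remaining rows 0 of 5 neighbours lay apart beyond the SD. These group means are uncorrected for dye and come from separately normalised lines, and most Al samples carried Cy3. The dye effect (Cy3 over Hyper 5, log2) was -0.74 for PDI probe 2, -0.42 for FKBP70 probe 1 and 0.11 for FKBP70 probe 3. At the first 2 of these, dye widens the gaps between Al and control groups. At PDI probe 2, 3R Al lay 0.29 below CS control.

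Other genes of protein folding and upkeep were looked for by a list of 47 symbols, and 4 were found with 10 rows: PIMT, which repairs damaged aspartyl residues in proteins, UBC1, a ubiquitin-conjugating enzyme, the thioredoxin gene Trx-H, and the thioredoxin gene Trx-M. The symbols searched included HSP70, HSP90, HSP101, BiP and calreticulin, and these matched no row. In CS 4 of 10 rows rose (11.6% of all rows did), in 3R 5 of 10 (7.71% of all rows) and in 6R 4 of 10 (13.7% of all rows), and none fell. PIMT rose by 0.84 ± 0.09 in CS, 0.74 ± 0.09 in 3R and 0.98 ± 0.09 in 6R on the log2 scale (limma adjusted p at most 0.0021), in 3 of 3 arrays of each line. UBC1 rose in 3 of 4 rows in each line, with the changes of probe 4 at 0.52, 0.61 and 0.65 in CS, 3R and 6R. For 2 of these UBC1 rows the measured ratio was above 0 in 2 of 3 arrays of a line. Trx-H passed in 1 of 4 rows in 3R (0.52, adjusted p = 0.047) and in none in CS or 6R, and the single Trx-M row, with a mean of 6.02, stood near the low end of the scale.

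Likeness to other annotated genes was measured by the root mean square difference of the 6 group means, each profile centred on its own mean, over 736 rows of 401 genes. For hsp16.9A, at its row of highest mean level (probe 2), the nearest were the proton pump gene ha1 (0.16 log2 units), LOC100136991 (0.16) and WPEAMT, a phosphoethanolamine methyltransferase gene (0.16), against a median of 0.63 over all candidates. For FKBP70 (probe 2) they were LOC606341 (0.04), LOC100049019 (0.08) and LOC100127062 (0.08), with a median of 0.39. The group means of FKBP70 probe 2 spanned 0.62 with SDs of up to 1.00, and 0 of 5 neighbours lay apart beyond the SD. A near match to them therefore shows little. The row of highest level of FKBP70 is not the one with the largest falls. These group means are not corrected for dye and keep each line's own scale. For PDI (probe 1) no such genes are given, since its uncorrected means were higher with Al in CS (13.25 against 13.15) and in 3R (13.44 against 13.39), opposite in sign to its dye-corrected changes.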

How the data were processed

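The deposited values are log2 intensities of single channels of 9 two-colour arrays (18 samples), and the submitters' processing notes name limma. How background and normalisation were treated is not given in the sources used here, and the sorted values of samples differ by at most 0.0064 within a line. Genes were named through the platform annotation and, for synonyms alone, a RefSeq gene table of another assembly. No sequence table was used here.

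Within-array log2 ratios went into limma 3.58.1 (R 4.3.3), whose model held line means and one dye term (5 residual degrees of freedom, 2.61 added by the prior). The array pairs Al and control samples, whose residuals correlated at 0.722 to 0.855. For control levels the model took all 18 channels, the 6 groups and the dye, and treated array as random (consensus correlation 0.625, kept for the fits with 1 array left out). Adjusted p-values run over all 45220 rows. The number of arrays limits the precision, and p-values measure the spread between the deposited samples.

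The members, lists and tests were chosen with earlier results of these data known. Every member row is described. Genes of the further list are named where found. Its symbols Trx-H and Trx-M were added after the annotation was read, and gene descriptions were not searched. The 3 annotated genes most alike to a member are given for FKBP70 and hsp16.9A. Alternatives were the dye term, the blocks, slide, a filter on rows with a mean under 6.3, a variance trend, joint normalisation, a line alone and each array left out. For 6R, replicates 1 and 2 are numbered the other way round in the names of the scans, and the numbers of the titles were used.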

Additional observations from a re-analysis of the deposited data

How the results depend on the processing

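The number of chaperone rows that passed (2 in CS, 1 in 3R, 4 in 6R, 5 in the mean of the lines, 1 for controls of 3R against CS and 1 against 6R) moved under several settings. Without the dye term 1 passed in CS, 0 in 3R, 1 in 6R, 2 in the mean and 0 for controls of 3R against 6R, and the mean change of PDI probe 1 turned to 0.0099. Without the replicate block, that is with the pairing by array ignored, 0 passed in 3R and 3 in the mean. The 6R call of PDI probe 1 was then lost (limma adjusted p = 0.62), and it was also lost with a line alone (adjusted p = 0.054). With all samples normalised together 0 passed in 3R. Among rows with a mean of at least 6.3, 0 passed for controls of 3R against 6R and 6 in the mean. With the slide as a block 0 passed for controls of 3R against CS, and with it as a further block of the ratios, an alternative added after the data were seen, 0 passed in 3R and 2 in 6R. Slide 2 held CS arrays alone. Leaving out 1 array gave 2 to 3 in CS, 0 to 1 in 3R, 3 to 6 in 6R (at 6, hsp16.9A probe 3 passed upward), 3 to 6 in the mean, 0 to 1 for the response differences of 3R from CS and from 6R, and 0 to 1 for controls of 3R against 6R. With the replicate number as a block (replicate block) for control levels, which no label ties to a shared batch, 1, 0 and 1 rows passed (3R against CS, 6R against CS, 3R against 6R), as without it. Joint normalisation moved the share of lower among all rows called from 92.8% to 70.9% (controls of 3R against CS), from 71.4% to 45.8% (6R against CS) and from 88.1% to 77.5% (3R against 6R). The calls of FKBP70 probe 3 in CS, in 6R and in the mean held under every alternative run, at an adjusted p of 0.046 or lower. The variance trend changed no call. The cause of these shifts was not tested. Group means of the hsp16.9A rows ran from 6.41 to 8.17, against sample medians of 7.09 to 7.33. In the lower of these groups, such as 3R control (6.85) and 3R Al (6.68) at probe 2, compression limits what a change can show.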
